A study of Mus musculus with 6 samples.

Results

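The genes described are 8 members of insulin and IGF1 signalling and of glucose transport, found by symbol among the 15944 genes of the study's table: Igf1r, Insr, Irs2, Tbc1d4, Tbc1d1, Slc2a1, Slc2a3 and Txnip. They were chosen by symbol and selected on their normalized counts in the same 6 libraries, with the comparison of the groups in view, so their differences between the groups are a description of where they lie in a fit over all genes, and not a test of the set. Each had 1 row with values above 0 in all 6 libraries. The 6 bulk RNA libraries came from splenic regulatory T cells of naive C57BL/6 mice. These cells, Tregs for short, are Foxp3-expressing CD4+ T cells that hold immune responses in check. All cells were sorted as CD3+ CD4+ and positive for a red Foxp3 reporter. The first group, called RORγt+ here, was also positive for a green reporter of the transcription factor RORγt, and the second, called RORγt- here, was negative for it and stained for the chemokine receptor CCR6. Each group has 3 libraries. Nothing in the labels says that they came from different animals, and every p-value here reflects variation between libraries, which may be technical.

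Insulin and IGF1 bind related receptor tyrosine kinases, encoded by Insr and Igf1r, which recruit adaptors such as IRS2 and start the PI3K and AKT cascade. AKT phosphorylates AS160, the product of Tbc1d4, and its paralog TBC1D1, which are GTPase-activating proteins that hold back Rab-driven movement of transporter vesicles to the cell surface. Slc2a1 and Slc2a3 encode the glucose transporters GLUT1 and GLUT3, and Txnip encodes an alpha-arrestin that promotes removal of glucose transporters from the membrane. In T cells, activation through the antigen receptor and CD28 raises glucose uptake through the same PI3K and AKT cascade, and AKT holds the FoxO transcription factors out of the nucleus.

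The libraries had column totals of 11325902 to 11890770 normalized counts. The value of 1 read, read from the spacing of low values, was 0.821 to 1.24 normalized counts, which puts depth at about 9215097 to 14483276 reads. Foxp3 was listed at 10835 to 12609 normalized counts in RORγt+ and at 9790 to 10187 in RORγt- libraries, with no overlap. Cd4, at 8038 to 12516, and Cd3e, at 5409 to 8913, overlapped between the groups. Of 11 markers of Tregs and of the sort, 6 did not overlap, beside 18.1% of all genes. In RORγt+ Tregs 5 of these were higher and 1 was lower. Besides Foxp3 they included Il2ra, Ctla4 and Ikzf4. The log2 differences of Il2ra, Ctla4 and Ikzf4 were 0.42, 0.50 and -0.70 (limma adjusted p = 0.349, 0.295 and 0.212). Ccr6, whose protein gated the RORγt- sort, was listed at 698 to 900 in RORγt+ and at 112 to 148 in RORγt- libraries. The library that differed most from the rest was RORγt+ replicate 3. Its log2 values correlated with those of the other 5 at 0.932 to 0.938, where they correlated among themselves at 0.947 to 0.967, and it had 1247 genes at 0 against 438 to 638. Mitochondrially encoded genes made up between 3.90% and 4.797% of each RORγt+ library and between 5.04% and 6.26% of each RORγt- library, with no overlap between the groups.

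Promoter sequence is shown for 3 members. Igf1r and Tbc1d4 are the members whose groups do not overlap, and Txnip is the most abundant. RefSeq (GRCm38.p6) gave a start site for 6 of the 8 members, and the 250 bases before it are printed 5′ to 3′ on the gene's strand. Capitals mark 5 motifs searched on both strands: the forkhead core GTAAACA, the E-box CACGTG, the CCAAT box, the GC box GGGCGG and AGGTCA, the core bound by ROR factors.
Igf1r, chr7:67952007-67952256, plus strand: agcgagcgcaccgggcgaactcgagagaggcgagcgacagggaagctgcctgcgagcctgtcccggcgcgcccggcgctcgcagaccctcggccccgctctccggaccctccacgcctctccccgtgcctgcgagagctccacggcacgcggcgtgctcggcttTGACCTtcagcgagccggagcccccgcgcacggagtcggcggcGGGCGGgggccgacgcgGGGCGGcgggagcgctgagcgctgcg
Tbc1d4, chr14:101609192-101609441, minus strand: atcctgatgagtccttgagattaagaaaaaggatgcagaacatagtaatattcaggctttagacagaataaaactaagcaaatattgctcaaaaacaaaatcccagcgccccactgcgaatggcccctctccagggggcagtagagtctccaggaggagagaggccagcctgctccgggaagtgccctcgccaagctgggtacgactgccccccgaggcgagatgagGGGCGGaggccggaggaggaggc
Txnip, chr3:96557707-96557956, plus strand: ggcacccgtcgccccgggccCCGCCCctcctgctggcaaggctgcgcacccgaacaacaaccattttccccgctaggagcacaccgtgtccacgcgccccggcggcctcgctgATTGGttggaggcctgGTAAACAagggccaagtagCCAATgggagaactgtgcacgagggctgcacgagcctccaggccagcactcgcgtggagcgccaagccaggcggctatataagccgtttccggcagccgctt
The Igf1r window was 77.6% G and C, the Tbc1d4 window 54.8% and the Txnip window 66.8%, against a median of 52.4% over 32851 windows of the same length. Igf1r held 2 GC boxes and 1 AGGTCA, on the reverse strand, and Tbc1d4 held 1 GC box. Txnip held 1 forkhead core, flanked by 2 CCAAT boxes, and 1 GC box. No motif overlapped another in these windows. GTAAACA was present in 3.17% of all windows, CACGTG in 6.02%, CCAAT in 33.8%, GGGCGG in 32.7% and AGGTCA in 14.0%. Of the other matched members, Irs2 held 1 CACGTG, 2 CCAAT boxes and 1 GC box, Slc2a1 held 2 GC boxes, and the 2 windows of Tbc1d1 held 0 and 4 GC boxes. These matches are letters in a window and say nothing of binding.

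Of the 8 genes, Tbc1d4 and Igf1r stood apart between the groups, both with lower values in RORγt+ Tregs. The transporters, Txnip, Irs2, Insr and Tbc1d1 overlapped between the groups. Limma placed 1 of the 8, Tbc1d4, past an adjusted p of 0.05, in the lower direction, where 0.245% of all genes passed as lower and 0.564% passed in either direction. No member passed as higher (0.32% of all genes did). At an unadjusted p under 0.05 there were 2 members, of which 0 were higher, beside 10.9% of all genes. The groups did not overlap in 2 of the 8, as in 18.1% of all genes. The median log2 fold change of the 8, RORγt+ minus RORγt-, was -0.066, beside -0.011 over all genes. Since the 8 were chosen with this comparison known, nothing is read from these counts. In bulk RNA, fewer cells with a transcript and less of it per cell cannot be told apart.

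**Figure D1:**
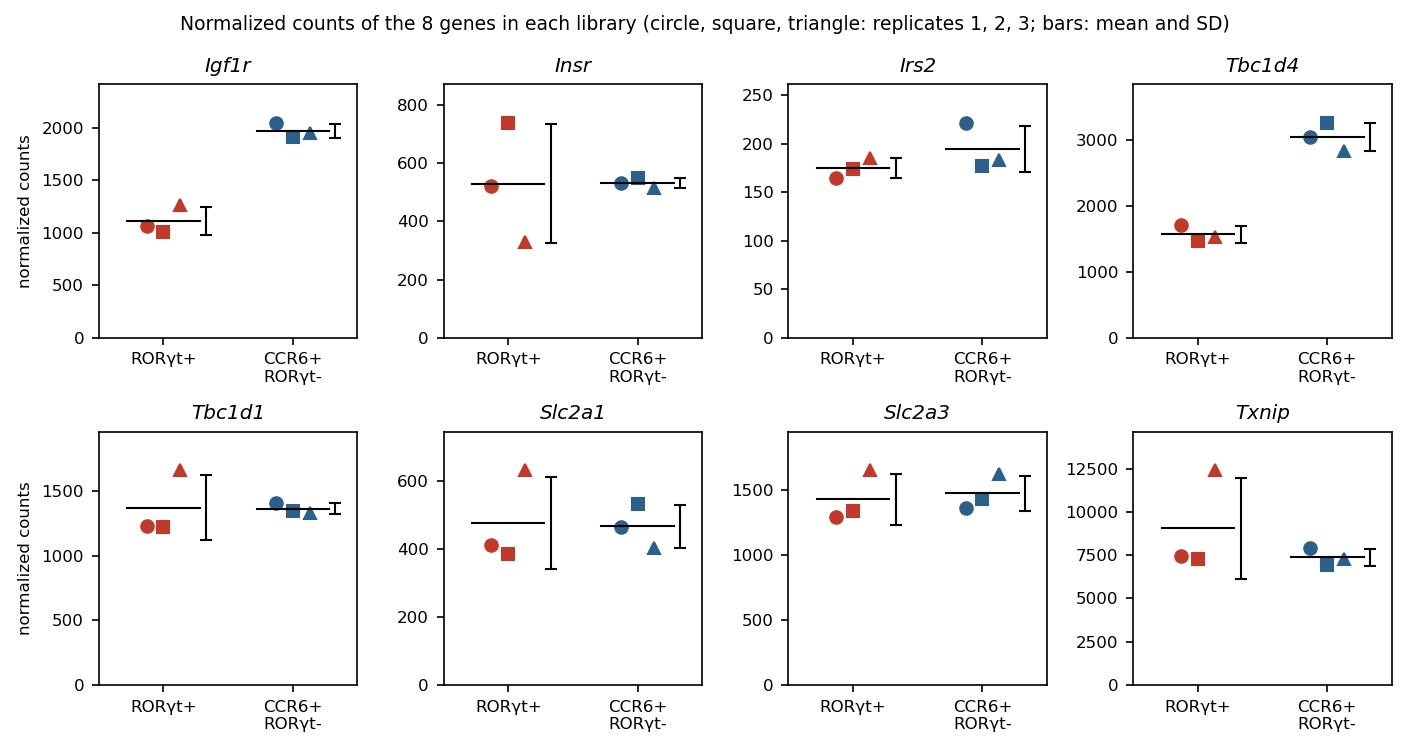
Normalized counts (vertical axes, from 0) of the 8 genes in the 3 RORγt+ libraries (red) and the 3 CCR6+ RORγt- libraries (blue), with symbols for replicates 1 to 3, a line at the mean and a bar for the SD. Igf1r and Tbc1d4 do not overlap between the sorts, and RORγt+ replicate 3 (red triangle) is the highest of all 6 libraries in Tbc1d1, Slc2a1, Slc2a3 and Txnip and the lowest in Insr.

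The receptors came first. Igf1r (ENSMUSG00000005533, chromosome 7, 67952827 to 68233668, GRCm38) stood at 1063, 1009 and 1266 normalized counts in RORγt+ replicates 1 to 3 and at 2043, 1910 and 1951 in RORγt- replicates 1 to 3. All 3 RORγt- libraries lay above all 3 RORγt+ libraries, and each group was tight. The means were 1113 ± 135 and 1968 ± 68.3 (SD, n = 3), 1.77 times higher in RORγt- Tregs. On the log2(value + 1) scale the difference was -0.83 ± 0.13 (SE), with a 95% interval of -1.13 to -0.52. Its adjusted p of 0.0514 missed the threshold narrowly, and Igf1r ranked 92 by p where 90 genes passed. Without RORγt+ replicate 3 the difference was -0.92 and the adjusted p 0.0140, and with any other library left out it was 0.169 to 0.287.

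Insr (chromosome 8, 3122061 to 3279617) stood at 521, 737 and 330 normalized counts in RORγt+ Tregs and at 531, 548 and 516 in RORγt- Tregs. The RORγt- libraries lay within a narrow band inside the wide range of the RORγt+ libraries. The means were 530 ± 204 and 531 ± 16.001 (SD, n = 3), a log2 difference of -0.080 ± 0.28 (SE, adjusted p = 0.965) with a 95% interval of -0.72 to 0.56. That interval holds differences nearly as large as that of Igf1r, so the data do not show that Insr was equal. The sign turned to 0.22 without RORγt+ replicate 3 (adjusted p = 0.518), the library with the lowest Insr value.

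Within a library, the ratio of Igf1r to Insr was 2.04, 1.37 and 3.83 in RORγt+ replicates 1 to 3 and 3.85, 3.49 and 3.78 in RORγt- replicates 1 to 3. RORγt+ replicate 3 fell among the RORγt- libraries, through its low Insr, and the other RORγt+ libraries lay below them.

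Irs2, the adaptor that docks PI3K at both receptors (chromosome 8, 10984681 to 11008458), was the least abundant of the 8. It stood at 165, 174 and 185 normalized counts in RORγt+ Tregs and at 221, 178 and 184 in RORγt- Tregs. The groups overlapped, and only RORγt- replicate 1 lay above the rest. The log2 difference was -0.15 ± 0.18 (SE, adjusted p = 0.850), with a 95% interval of -0.56 to 0.27, and -0.048 without RORγt- replicate 1. An opposite-strand transcript, 9530052E02Rik, shares 162 exonic bases with Irs2.

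Tbc1d4, which encodes AS160 (ENSMUSG00000033083, chromosome 14, 101442360 to 101609191), stood at 1706, 1462 and 1535 normalized counts in RORγt+ replicates 1 to 3 and at 3041, 3255 and 2835 in RORγt- replicates 1 to 3. The lowest RORγt- library was well above the highest RORγt+ library. Means were 1568 ± 125 and 3044 ± 210 (SD, n = 3), 1.94 times higher in RORγt- Tregs. The log2 difference was -0.96 ± 0.12 (SE, adjusted p = 0.0222), with a 95% interval of -1.24 to -0.67, and the gene ranked 51 of 15944 by p. None of its 31-base sequence windows occurs in transcripts of other genes. The call remained without RORγt+ replicate 3 (adjusted p = 0.0225). It was lost without RORγt+ replicate 1 (0.0700) or 2 (0.113) and without RORγt- replicate 1 (0.160), 2 (0.162) or 3 (0.117), while the difference itself stayed between -1.02 and -0.91. Those 5 fits called 4 to 10 genes in all.

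Its paralog Tbc1d1 (chromosome 5, 64156305 to 64351486) stood at 1230, 1222 and 1658 normalized counts in RORγt+ Tregs and at 1407, 1347 and 1332 in RORγt- Tregs. The RORγt- libraries lay in a narrow band, with RORγt+ replicate 3 above it and the other RORγt+ libraries below. Its log2 difference was -0.0064 ± 0.15 (SE, adjusted p = 0.995), with a 95% interval of -0.36 to 0.35, and -0.15 without RORγt+ replicate 3. The proportion of the 2 AS160 family genes restates the difference of Tbc1d4 and is not a further result. The ratio of Tbc1d4 to Tbc1d1 was 1.39, 1.197 and 0.926 in RORγt+ Tregs and 2.16, 2.42 and 2.13 in RORγt- Tregs. All 3 RORγt- libraries lay above the RORγt+ libraries.

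**Figure D2:**
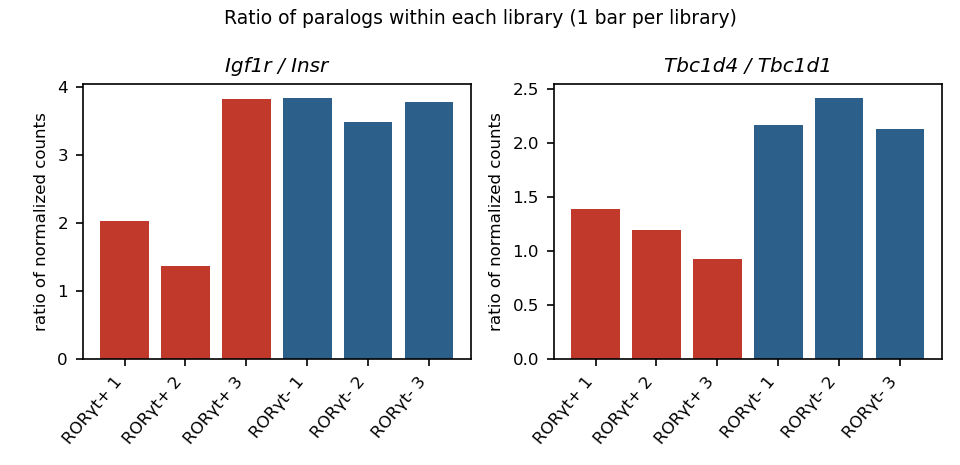
Ratio of normalized counts of Igf1r to Insr (left) and of Tbc1d4 to Tbc1d1 (right) in each library, 1 bar per library, RORγt+ in red and RORγt- in blue. Tbc1d4 to Tbc1d1 lies between 0.926 and 1.39 in RORγt+ libraries and between 2.13 and 2.42 in RORγt- libraries, while the Igf1r to Insr ratio of RORγt+ replicate 3 (3.83) is as high as those of the RORγt- libraries.

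Slc2a1, the transporter GLUT1 that T cells raise on activation (chromosome 4, 119108711 to 119137983), stood at 413, 386 and 631 normalized counts in RORγt+ Tregs and at 465, 530 and 402 in RORγt- Tregs. The groups overlapped, and RORγt+ replicate 3 was the highest of all. Between the groups the log2 difference was 0.0053 ± 0.22 (SE, adjusted p = 0.997), with a 95% interval of -0.51 to 0.53. Without RORγt+ replicate 3 it was -0.21 (adjusted p = 0.495), and without RORγt- replicate 3 it was -0.096.

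Slc2a3, the high-affinity transporter GLUT3 (chromosome 6, 122727809 to 122801640), stood at 1291, 1337 and 1650 normalized counts in RORγt+ Tregs and at 1363, 1433 and 1624 in RORγt- Tregs. The groups covered nearly the same range. The log2 difference was -0.052 ± 0.14 (SE, adjusted p = 0.952), with a 95% interval of -0.39 to 0.29. Leaving out RORγt+ replicate 1 gave 0.016, and leaving out RORγt- replicate 3 gave 0.020. The ratio of Slc2a3 to Slc2a1 was 3.07 ± 0.43 in RORγt+ and 3.22 ± 0.71 in RORγt- libraries (SD, n = 3).

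Txnip, the arrestin that restrains glucose uptake (chromosome 3, 96557957 to 96561883), stood at 7446, 7294 and 12394 normalized counts in RORγt+ Tregs and at 7907, 6956 and 7256 in RORγt- Tregs. A single library, RORγt+ replicate 3, held the high value, and the other 5 lay close together. For Txnip the log2 difference was 0.25 ± 0.21 (SE, adjusted p = 0.757), with a 95% interval of -0.24 to 0.75, and 0.0014 without that library. Of the Txnip sequence windows, 17.4% also occur in other transcripts, mainly the opposite-strand gene Gm15441, which shares 606 exonic bases. Whether counting used strand is not given in the sources used here, so reads of the 2 genes within the shared bases cannot be told apart.

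**Figure D3:**
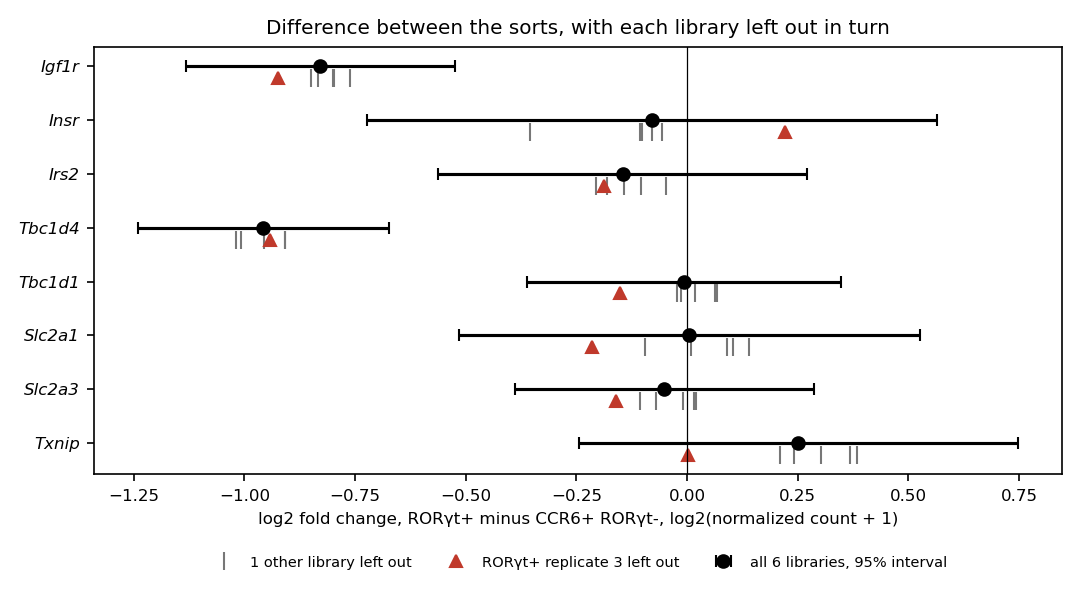
Log2 fold change (horizontal axis, RORγt+ minus CCR6+ RORγt-) of each gene from all 6 libraries with its 95% interval (black), with RORγt+ replicate 3 left out (red triangle) and with each other library left out (grey ticks). Only the intervals of Igf1r and Tbc1d4 lie away from 0, and Insr, Slc2a1 and Txnip move most when RORγt+ replicate 3 is left out.

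Levels of different genes were compared per kilobase of the longest coding transcript, in normalized counts per kb. In RORγt- Tregs the order was Txnip (2608 ± 172, SD, n = 3), Tbc1d4 (469 ± 32.4), Slc2a3 (372 ± 34.1), Tbc1d1 (210 ± 6.17), Igf1r (173 ± 5.98), Slc2a1 (143 ± 19.6), Insr (56.8 ± 1.71) and Irs2 (30.7 ± 3.75). No neighbours in that order overlapped between libraries. In RORγt+ Tregs the order was Txnip (3199 ± 1026), Slc2a3 (360 ± 49.3), Tbc1d4 (242 ± 19.3), Tbc1d1 (212 ± 38.5), Slc2a1 (146 ± 41.2), Igf1r (97.5 ± 11.9), Insr (56.6 ± 21.8) and Irs2 (27.6 ± 1.64). There Tbc1d4 overlapped with Tbc1d1, and Tbc1d1 with Slc2a1. Tbc1d4 thus stood above Slc2a3, and Igf1r above Slc2a1, in RORγt- Tregs, and below them in RORγt+ Tregs. Per kb of all exons joined, Tbc1d4 stood above Slc2a3 in both groups (204 against 197 in RORγt+, 397 against 203 in RORγt-) and Igf1r below Slc2a1 in both (66.3 against 136, 117 against 133), so these 2 orders depend on the gene model.

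RORγt+ replicate 3 lay at an end of its group's range for most of the 8 genes. It was the highest of the 3 RORγt+ libraries in 6 of the 8 genes and the lowest in 1. Among 3 libraries only 1 lies in the middle for each gene, so an end position is common. Its share over all genes was not taken. Against the mean of RORγt+ replicates 1 and 2 its Txnip was 1.68 times as high, its Slc2a1 1.58 times and its Tbc1d1 1.35 times, while its Insr was 0.525 times as high. Igf1r (1.22) and Tbc1d4 (0.969) moved less. Across all genes with a mean of at least 50 this library's values moved with transcript composition. In the lowest of 5 equal bins of GC content its median log2 deviation from replicates 1 and 2 was -0.72, and in the highest bin it was 0.41. In the shortest of 5 bins of transcript length the median was 0.27 and in the longest -0.36. The 8 genes followed these medians in part. Insr (9355 bases, 46.8% GC) deviated by -0.91, beyond the medians of its bins, -0.17 for GC content and -0.36 for length. Igf1r, the longest of the 8 (11409 bases, 49.4% GC), deviated by 0.29. Irs2, the highest in GC content (6323 bases, 56.6% GC), deviated by 0.13. Slc2a1 (3260 bases, 54.0% GC) deviated by 0.66, where the medians of its bins were 0.064 for length and 0.26 for GC content. Txnip (2827 bases, 48.3% GC), in the middle bin of both length and GC content, deviated by 0.75. The part of GC content and length in these values was not tested.

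**Figure D4:**
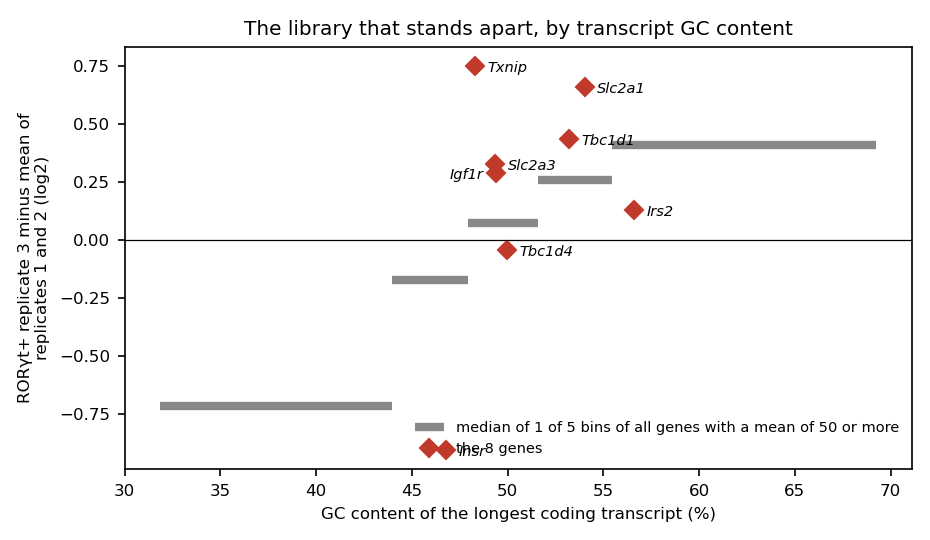
Log2 deviation of RORγt+ replicate 3 from the mean of RORγt+ replicates 1 and 2 (vertical axis) against GC content of the longest coding transcript (horizontal axis, %), for the 8 genes (red) and as the median of each of 5 equal bins of all genes with a mean of at least 50 (grey). The grey medians climb from -0.72 to 0.41, Insr lies at -0.91, and Tbc1d4 lies at -0.042, near 0.

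Markers of other cells were read beside Tbc1d4 and Igf1r. Of 9 fixed markers of γδ and innate type 17 T cells, 8 had values and 1, 5830411N06Rik, passed as higher in RORγt+ Tregs. Their summed level was 242 to 308 normalized counts in RORγt+ and 132 to 195 in RORγt- libraries, with no overlap. Without 5830411N06Rik the sums overlapped, at 181 to 243 and 132 to 195, and Tcrg-C1, Tcrg-C2 and Tcrg-C4 had log2 differences of -0.024, -0.24 and -0.56. Trdc (0.69, adjusted p = 0.354) and Cd163l1 (2.30, adjusted p = 0.324, at most 11.0 normalized counts) were higher in RORγt+ Tregs without overlap. In all, 3 of the 8 did not overlap, each higher in RORγt+ Tregs, beside 18.1% of all genes. The median log2 difference of the 8 was 0.69. Of 10 myeloid markers, 6 had values that summed to 58.5 to 167 in RORγt+ and 40.0 to 64.6 in RORγt- libraries, which overlap. The groups did not overlap in 2 of the 6, both higher in RORγt+ Tregs, beside 18.1% of all genes. These were Itgam (22.2 to 55.7 against 14.3 to 17.9) and Csf1r (5.61 to 9.04 against 1.15 to 4.99). Neither passed, and the median log2 difference of the 6 was 1.34. S100a9 was at 0 in every RORγt- library and in RORγt+ replicate 3, and Fcgr3 was at 0 in RORγt+ replicates 1 and 3 and at 2.07 to 5.51 in RORγt- libraries. The 7 B cell markers reported here summed to 7312 to 10907 and 8399 to 10605. Most of that sum was Ighm, at 6051 to 9679 over the 6 libraries, while Cd79a was at 8.12 to 51.5. Dendritic cell markers (4 of 6) summed to 13.0 to 41.5 and 39.3 to 47.5. The groups did not overlap in 2 of the 4, both lower in RORγt+ Tregs, beside 18.1% of all genes. These were Zbtb46 (9.57 to 12.85 against 20.49 to 24.82) and Siglech (at most 3.65). Neither passed, and the median log2 difference of the 4 was -0.95. CD8 T and NK cell markers (7 of 7) summed to 365 to 541 and 329 to 423, with a median log2 difference of 0.63. Of these only Prf1 did not overlap, and it was lower in RORγt+ Tregs (97.1 to 114 against 135.5 to 151). Red cell and platelet markers (6 of 8) summed to 198 to 1219 and 75.7 to 6172. The highest red cell sum was that of RORγt- replicate 2, with the other RORγt- libraries at 75.7 and 532. No listed marker was at 0 in all 6 libraries, but the study's table held almost no genes that low. Only 0.0753% of its genes had a lower mean than Grb10, at 0.713 and 2.27 in the groups. The markers without values are not covered. The part of these cells, and of the mitochondrial share, in the differences of Tbc1d4 and Igf1r was not tested.

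For the rest of the pathway, 10 lists of 188 other genes were drawn from textbook knowledge, and 157 had values. The lists were chosen with earlier results of these data known, so their counts are a description. Limma called 0 of the 157 higher and 1 lower, which is 0.637% beside 0.564% of all genes, and 23 (14.6%) had an unadjusted p under 0.05, beside 10.9% of all genes. With array weights 3 were called higher and 4 lower. The groups did not overlap in 40 of them (25.5%), beside 18.1% of all genes, and their median log2 fold change was 0.057. The gene that fell was Bcl6, a transcriptional repressor of follicular T cells and a described FoxO target. It stood at 294, 285 and 279 normalized counts in RORγt+ Tregs and at 603, 583 and 576 in RORγt- Tregs, with no overlap (log2 difference -1.04, adjusted p = 0.0224). It passed without RORγt+ replicate 3 and not without any other library. Of the 16 FoxO factors and targets with values none passed as higher, and the median log2 fold change was 0.14. The groups did not overlap in 4 with higher and 1 with lower values in RORγt+ Tregs (18.1% of all genes did not). Where 10.9% of all genes had an unadjusted p under 0.05, 4 of the 16 did. Besides Bcl6 these were Klf2, a factor of T cell quiescence and migration (4106 ± 1080 against 2713 ± 22.4 normalized counts, SD, n = 3, adjusted p = 0.320), S1pr1, the receptor for exit from lymphoid organs (4788 ± 652 against 3457 ± 127, adjusted p = 0.249), and Sesn1. S1pr1 passed as higher with array weights. Foxo1 itself stood at means of 5045 and 4468.

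Among other receptors, ligands and binding proteins, 6 of 14 had values and none passed. The groups did not overlap in 3 of the 6, where 18.1% of all genes did not, a count too small to read. All 3 had lower values in RORγt+ Tregs: Igfbp4, a secreted IGF-binding protein (means of 1019 ± 152 and 1451 ± 124 normalized counts, SD, n = 3, adjusted p = 0.264), Igf2r, a clearance receptor for IGF2 (3408 ± 198 against 4081 ± 291, SD, n = 3, adjusted p = 0.476), and Igf2 itself, near the floor (10.4 ± 4.99 against 19.3 ± 1.26, adjusted p = 0.518). Over the 6 genes the median log2 fold change was -0.72, and 4 of them had low values. Ligands made elsewhere reach Tregs through the blood and are not seen here.

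Of 27 adaptors and regulators at the receptor, 22 had values and none passed. An unadjusted p under 0.05 was found for 5 of the 22, beside 10.9% of all genes. The groups did not overlap in 7 of the 22, 6 higher and 1 lower in RORγt+ Tregs, beside 18.1% of all genes. Dok2, a docking protein that dampens tyrosine kinase signals, averaged 1030 ± 97.5 in RORγt+ and 617 ± 79.0 in RORγt- libraries (SD, n = 3, adjusted p = 0.115). Socs3, a feedback inhibitor of cytokine signalling that also binds the insulin receptor, stood at 1333 ± 152 against 895 ± 42.4 (adjusted p = 0.171). The phosphatase gene Ptpn11 stood at 1201 ± 107 against 1795 ± 105 (adjusted p = 0.128) and passed as lower without RORγt+ replicate 3.

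Of 26 PI3K, AKT and phosphatase genes with values none passed, and the median log2 fold change was 0.097. An unadjusted p under 0.05 was found for 2 of them, beside 10.9% of all genes. Phlpp1, a phosphatase that removes an activating phosphate from AKT, averaged 501 ± 24.0 and 810 ± 15.7 (SD, n = 3, adjusted p = 0.0737) and passed as lower without RORγt+ replicate 3. The pseudokinases Trib2 and Trib3 had log2 differences of 0.50 and 0.98 (adjusted p = 0.222 and 0.544). In the list of mTOR complexes, 23 genes had values, none passed and 4 had an unadjusted p under 0.05, beside the same 10.9%. Sgk1, an AKT-related kinase downstream of mTORC2, averaged 216 ± 20.8 and 86.4 ± 23.4 (adjusted p = 0.0775). Sesn1, which restrains mTORC1, had 2542 ± 550 against 1606 ± 21.7 (adjusted p = 0.212), and Tsc1 a log2 difference of -0.37 (adjusted p = 0.403).

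Over all genes 10.9% had an unadjusted p under 0.05. Of 5 other glucose transporter genes with values none passed and 0 had an unadjusted p under 0.05. The urate and hexose transporter Slc2a9 averaged 225 ± 21.1 and 173 ± 14.3 (SD, n = 3, adjusted p = 0.491), with no overlap, and Slc50a1 and Slc2a8 overlapped between groups. Slc2a4, the GLUT4 transporter that AS160 is best known to control in muscle and fat, was not analysed here. Of 29 other genes of vesicle traffic none passed and 3 had an unadjusted p under 0.05. These were Aspscr1, which encodes the GLUT4 tether TUG, and the vesicle SNAREs Vamp3 and Vamp8, with log2 differences of 0.44, 0.40 and 0.36 (adjusted p = 0.392, 0.421 and 0.441). The groups did not overlap in 7 of the 29, beside 18.1% of all genes. Of these, 5 were higher in RORγt+ Tregs and 2 were lower, Rab10 (-0.17) and Stx4a (-0.21).

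The counts at an unadjusted p under 0.05 that follow stand beside 10.9% of all genes. Of 10 other arrestin, thioredoxin and related genes none passed and 1 had an unadjusted p under 0.05. That gene was Arrdc4, the closest relative of Txnip and like it a target of the glucose-sensing factor MondoA. It stood at 173, 140 and 258 normalized counts in RORγt+ Tregs and at 481, 352 and 406 in RORγt- Tregs. All RORγt- libraries lay above the RORγt+ libraries, unlike those of Txnip. The log2 difference was -1.15 (adjusted p = 0.141), and it passed as lower without RORγt+ replicate 3. Of 9 genes of glucose phosphorylation and related steps, among them the Pfkfb genes and G6pc3, none passed. An unadjusted p under 0.05 was found for 2, Adpgk (log2 difference 0.45, adjusted p = 0.320) and Pfkfb4 (-1.15, adjusted p = 0.370). Of 13 AMP-activated kinase genes none passed and 2 had an unadjusted p under 0.05. These were the subunits Prkab2 (means of 132.5 ± 8.46 and 75.8 ± 4.69, SD, n = 3, adjusted p = 0.197) and Prkag1 (1032 ± 162 against 790 ± 35.9, adjusted p = 0.420).

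**Figure D5:**
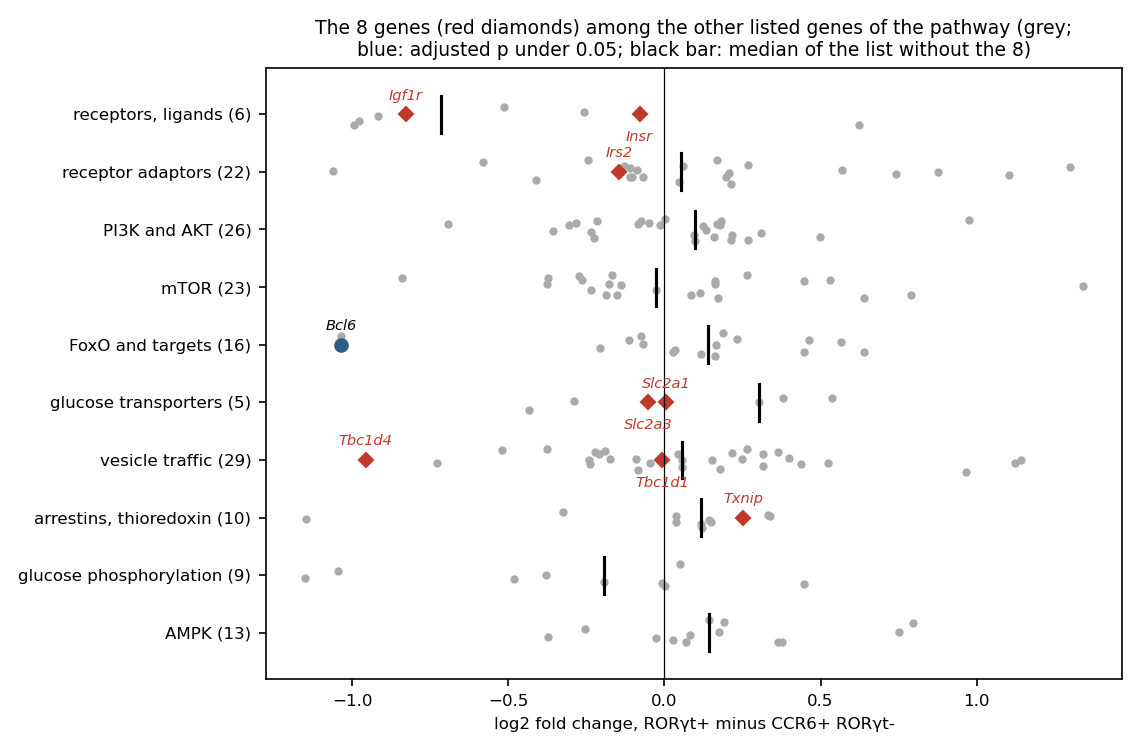
Log2 fold change (horizontal axis, RORγt+ minus CCR6+ RORγt-) of the 8 genes (red diamonds) and the other genes of 10 lists (grey, number with values in brackets), with the median of each list without the 8 (black bar). Bcl6 is the only other gene past an adjusted p of 0.05 (blue), Tbc1d4 lies at -0.96 and Igf1r at -0.83, and the list medians lie between -0.72 (receptors and ligands) and 0.30 (glucose transporters).

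The genes most like each member were taken as the 2 with the highest Pearson r of log2 values over the 6 libraries, among 9056 genes with a mean of at least 100. Over so few libraries a high r is easily reached, and these values are a description. For Igf1r they were Mgat5, a glycosyltransferase that branches N-glycans (r = 0.995), and Ssh1, a cofilin phosphatase (r = 0.993). For Tbc1d4 they were Zfp41 (r = 0.996) and Enpp5 (r = 0.995). Enpp5 stood at 101, 80.3 and 97.6 normalized counts in RORγt+ Tregs and at 213, 233 and 203 in RORγt- Tregs. Igf1r and Tbc1d4 had r = 0.953 with each other over the same 6 libraries, in which both differ between the groups. The genes most like Txnip (Arl6ip5, r = 0.998, and Cuta, r = 0.997), Tbc1d1 (Ptp4a3 and Gabarap, both r = 0.999) and Slc2a1 (Psmd5, r = 0.995, and Rusc1, r = 0.994) were all highest in RORγt+ replicate 3. Those most like Insr, the DNA ligase gene Lig1 (r = 0.997) and Ago3 (r = 0.992), were lowest in that library. Irs2 was nearest to Herc3 (r = 0.993) and Tecr (r = 0.984), and Slc2a3 to the chaperonin subunit gene Cct4 (r = 0.988) and Rnaseh2c (r = 0.983).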

How the data were processed

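The submitters' processing notes name Salmon 1.2.0, DESeq2 without a version and GRCm38, giving no role or order. Which annotation and filters were used is not given in the sources used here. Deposited by the authors was 1 table of normalized counts, a signal that is neither raw counts nor per length, with column totals of 11325902 to 11890770. Only 50.2% to 69.1% of low values lay within 0.1 read of a whole number, and reads were not recovered. Genes near 1 normalized count rest on about 1 read.

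Values were analysed as log2(value + 1) in limma 3.58.1 (R 4.3.3), by a linear model with group as its term. Variances were moderated with a trend, and two-sided p-values were adjusted by Benjamini-Hochberg over 15944 genes, with a threshold of 0.05 and no filter. Fold changes understate those of low genes. The script was tested on simulated counts. Gene models, transcript lengths, GC content and 31-base windows came from GENCODE M21 (GRCm38), and promoters from RefSeq.

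Members and lists were chosen with earlier results of these data known. Named were the 8 members, the list genes past the threshold or else up to 3 by adjusted p, abundant genes, the 2 genes most like each member, and markers. Not every measured gene is reported here. Alternatives were other pseudocounts, scalings, a filter, array weights, a robust prior, a replicate block and each library left out.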

Additional observations from a re-analysis of the deposited data

How the results depend on the processing

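With pseudocounts 0.1 and 5, upper-quartile and library-total scaling, a mean of at least 10 and a robust prior, 84 to 103 genes were called and Tbc1d4 passed in each. Igf1r passed with pseudocount 5 (-0.83, adjusted p = 0.0455), a mean of at least 10 (-0.83, adjusted p = 0.0466) and array weights (-0.90, adjusted p = 0.00419), which brought the members called lower from 1 to 2. Array weights called 358 genes (170 higher, 188 lower), 3 pathway genes higher and 4 lower in all, with RORγt+ replicate 3 weighted at 0.199. The cause was not tested.

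A fit with a replicate block called 1 gene, with 1 higher and 0 lower, and 0 members and 0 pathway genes lower; Tbc1d4 stayed at -0.96 with an adjusted p of 0.219. Deviations from the group means correlated at -0.11, -0.022 and -0.18 between libraries of the same number, and none correlated best with its own number. With 3 libraries in each group these deviations are not independent, so this check cannot tell whether the numbers pair the samples.

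With each library left out, 4 to 174 genes were called, 1 to 85 higher and 0 to 89 lower, with 0 to 2 members and 0 to 4 pathway genes lower. The log2 fold change was -0.92 to -0.76 for Igf1r, -0.36 to 0.22 for Insr, -0.21 to -0.048 for Irs2, -1.02 to -0.91 for Tbc1d4, -0.15 to 0.068 for Tbc1d1, -0.21 to 0.14 for Slc2a1, -0.16 to 0.020 for Slc2a3 and 0.0014 to 0.38 for Txnip. No fit called a member higher. The sign also turned for Insr with array weights (0.18), for Tbc1d1 with library totals (0.023), and for Slc2a1 with upper-quartile scaling (-0.015) and array weights (-0.19), none past the threshold. Fewer libraries leave fewer degrees of freedom. Depth limits low genes such as Igf2 and Hk3.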
